A study of Mus musculus with 16 samples.

Results

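Sfrp1, Sfrp2, Sfrp4, Frzb and Dkk3, genes that encode secreted Wnt inhibitors, were followed across the stromal cell types of the injured and the uninjured mouse colon. They were taken by name, and all 5 were found among the 16039 genes measured. Single-cell RNA-seq libraries had been made from the transverse colon of 16 mice (C57Bl/6J, female, 7 weeks old), each from 1 mouse, and mice were the replicates. Of 22717 cells, 7509 carried 1 of 18 stromal labels in the deposited annotation, and 5828 of these carried 1 of 9 fibroblast labels.

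The mice formed 3 arms. In 2 of them they drank 4% dextran sulfate sodium (DSS), a chemical that injures the colon epithelium, for the whole experiment, and received 10 mg/kg of an antibody on day 4. The SZN-1326-p arm (6 mice) received SZN-1326-p, and its control arm (6 mice) received an antibody against GFP, which has no target in these mice. The third arm (4 mice) was uninjured, with no DSS. Cells were collected 24 h after dosing, on day 5, from 3, 3 and 2 mice of these arms, and 48 h after dosing, on day 6, from the same numbers. The genotype label was C57BL/6 for all. The anti-GFP arm against the uninjured arm therefore measures DSS together with a control antibody and, per the labels, antibodies were given to DSS mice only.

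Wnt proteins are secreted signals that bind Frizzled receptors and the co-receptors Lrp5 and Lrp6, and they maintain the stem cells at the base of the colon crypt. Fibroblasts around the crypt are a main source of Wnt ligands and of the secreted proteins that restrain them. Sfrp1, Sfrp2, Sfrp4 and Frzb (also called Sfrp3) belong to the secreted Frizzled-related family, whose cysteine-rich domain resembles the Wnt-binding part of Frizzled and can hold Wnt ligands away from the receptor. Dkk3 is related by sequence to the Dickkopf antagonists of Lrp5 and Lrp6, but its action on Wnt signalling differs between settings. SZN-1326-p is an antibody molecule made to engage Wnt receptors in place of a Wnt ligand.

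The genes lie apart in the mouse genome (build mm10, GENCODE vM21 annotation). Sfrp1 (ENSMUSG00000031548) is on chromosome 8 at 23411502 to 23449632 on the plus strand. Sfrp2 (ENSMUSG00000027996) is on chromosome 3 at 83766321 to 83774316, and Sfrp4 (ENSMUSG00000021319) is on chromosome 13 at 19623104 to 19632994, both on the plus strand. Frzb (ENSMUSG00000027004) is on chromosome 2 at 80411970 to 80447625, and Dkk3 (ENSMUSG00000030772) is on chromosome 7 at 112116017 to 112159057, both on the minus strand. Wnt signalling acts on genes through TCF/LEF factors, so the 250 bases upstream of the RefSeq start were searched on both strands for the TCF/LEF core motifs CTTTGA and CTTTGT, which do not overlap each other. Of the members, Frzb and Sfrp2 could be matched to a RefSeq promoter. Frzb held 1 match and Sfrp2 held 0, while 27.62% of all 32851 promoter windows of this length held at least 1. The match in Frzb lay 95 bases before the RefSeq start, on the strand opposite to the gene and inside the GENCODE gene record. It is shown because it is the single motif found, with the motif in capitals, 5′ to 3′ on the minus strand of chr2:80447474-80447503 (GRCm38.p6, from RefSeq).
Frzb: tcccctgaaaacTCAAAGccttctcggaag

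Libraries held 936 to 2033 cells and 173 to 567 fibroblasts each, with 9616512 to 21335421 UMIs (unique transcript molecules counted). The median fibroblast held 6807 to 11054 UMIs in SZN-1326-p mice, 9037 to 13289 in anti-GFP mice and 5353 to 7956.5 in uninjured mice. The labelled fibroblast types carried fibroblast marker transcripts: the summed level of 6 markers was 57.9 to 366 normalized UMIs per cell in the 8 types other than MuralLikeFB, against 0.427 in vascular endothelium. MuralLikeFB did not stand apart by these markers: it had 24.1, beside 25.4 in ICCajal and 24.4 and 37.8 in both vascular smooth muscle types, and its 6 smooth muscle markers summed to 410 normalized UMIs per cell. It is kept among the fibroblasts by its label. Epithelial markers were also present in fibroblasts, 5 of 5 genes above 0 in every arm, at a summed level of 1.56 to 4.03 in SZN-1326-p mice, 0.429 to 1.99 in anti-GFP mice and 2.68 to 6.04 in uninjured mice. Over all cells of a library, median mitochondrial shares were 6.54 to 24.1% in SZN-1326-p mice, 5.06 to 11.6% in anti-GFP mice and 19.2 to 26.1% in uninjured mice. Over fibroblasts alone they were 4.56 to 5.94%, 4.81 to 5.13% and 4.95 to 5.12% in the same order. In fibroblasts 4 libraries, all at 24 h, were richer in long transcripts. In all, 129 cells shared a barcode sequence with a cell of another library.

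Levels below are normalized UMIs per cell: UMIs scaled by a cell's size factor and averaged over the cells of a type within a mouse and then over mice with at least 20 such cells. They describe RNA and not protein, and levels of different genes are not compared with each other because capture differs between transcripts.

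Sfrp1 was found in 3395 of 4387 fibroblasts of DSS mice and in 1070 of 1441 fibroblasts of uninjured mice. In DSS mice of both antibody arms its level was 30.1 ± 7.06 in InjuryCryptFB1 (SD, n = 9) and 26.5 ± 4.10 in InjuryCryptFB2 (SD, n = 12), crypt fibroblast types that the annotation names for injury. These levels differed by less than their SDs. BaseCryptFB2 had 15.9 ± 4.83 (SD, n = 12), with values of single mice between 5.88 and 22.6 that reached into the range of InjuryCryptFB2. MyoFB (myofibroblasts) had 4.04 ± 0.760, CryptFB1 had 2.22 ± 0.972 (SD, n = 12 each) and CryptFB2 had 0.931 ± 0.680 (SD, n = 9). Uninjured mice had 10.6 ± 0.0922 in BaseCryptFB1 (SD, n = 4), a type with 10 cells in SZN-1326-p mice, 0 in anti-GFP mice and 744 in uninjured mice. The fibroblast type FB3 had at least 20 cells in 1 mouse only, so its share of stromal transcripts is given. It held 4.90% of stromal Sfrp1 in DSS mice with 2.39% of the stromal cells, and 6.46% in uninjured mice with 2.27%. Outside the fibroblasts, glia had much Sfrp1. Over all cells of DSS mice the mean was 18.2 in Glia1 and 16.1 in Glia2. Both glia types had fewer than 20 cells in each mouse. Vascular endothelium had 0.0327 ± 0.0659 (SD, n = 12).

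Nearly every cell of the leading types held the transcript. Sfrp1 was seen in 495 of 497 InjuryCryptFB1 cells of DSS mice (99.6%, 95% Wilson interval 98.5 to 99.9) and in 120 of 121 Glia1 cells (99.2%, 95.5 to 99.8). Epithelial cells, which should lack it, had a UMI in 142 of 6324 cells (2.25%). The intervals cover counting error only. CryptFB1 was mixed: 346 of its 912 cells in DSS mice had Sfrp1 (37.9%), and 10 of these cells held 25.4% of its Sfrp1 UMIs.

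Frzb had a pattern across types like that of Sfrp1. Its level in DSS mice was 0.751 ± 0.358 in InjuryCryptFB1 (SD, n = 9) and 0.547 ± 0.196 in InjuryCryptFB2 (SD, n = 12), and these ranges overlapped. BaseCryptFB1 of uninjured mice had 0.394 ± 0.0265 (SD, n = 4). A Frzb UMI was found in 43.9% of 497 InjuryCryptFB1 cells of DSS mice, against 0.0949% of 6324 epithelial cells. Over the 12 stromal types with at least 50 cells in all and at least 1 mouse with 20 or more of them, which leaves out the glia, pericytes and smooth muscle types, the log2 level of Frzb had a Pearson correlation of 0.90 with that of Sfrp1, given as a description because the types share the same libraries.

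Dkk3 had another order. Among types with at least 3 mice, MyoFB led in DSS mice with 2.72 ± 0.439 (SD, n = 12), followed by InjuryCryptFB1 with 1.79 ± 0.399 (SD, n = 9), InjuryCryptFB2 with 1.77 ± 0.469 and CryptFB1 with 1.29 ± 0.495 (SD, n = 12 each). ICCajal had 1.43 (2 mice) and MuralLikeFB 1.68 (1 mouse). InjuryCryptFB1 and InjuryCryptFB2 differed by less than their SDs, and so did CryptFB1 and CryptFB2, which had 1.25 ± 0.326 (SD, n = 9). In uninjured mice CryptFB1 led with 3.06 ± 0.458 (SD, n = 4), while MyoFB had 2.25 ± 0.152 (SD, n = 3) and BaseCryptFB1 had 2.18 ± 0.242 (SD, n = 4). Dkk3 was detected in 599 of 661 MyoFB cells of DSS mice (90.6%) and in 25 of 6324 epithelial cells (0.395%).

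Sfrp2 and Sfrp4 were rare transcripts held by few cells. Sfrp2 was found in 258 of 4387 fibroblasts of DSS mice, and 108 of these had a single UMI. Its level was 0.358 ± 0.407 in InjuryCryptFB1 (SD, n = 9), 0.280 ± 0.245 in InjuryCryptFB2 and 0.259 ± 0.294 in CryptFB1 (SD, n = 12 each), an order well within the spread between mice. Sfrp4 was highest in interstitial cells of Cajal (ICCajal), the pacemaker cells of the gut wall, where 39 of 118 cells of DSS mice (33.1%) and 8 of 31 cells of uninjured mice (25.8%) had it. Among fibroblasts of DSS mice BaseCryptFB2 led with 0.345 ± 0.386 (SD, n = 12). Single cells weighed heavily on this gene: 10 fibroblasts held 56.6% of its 472 UMIs in DSS mice, and 1 cell held 111.

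**Figure D1:**
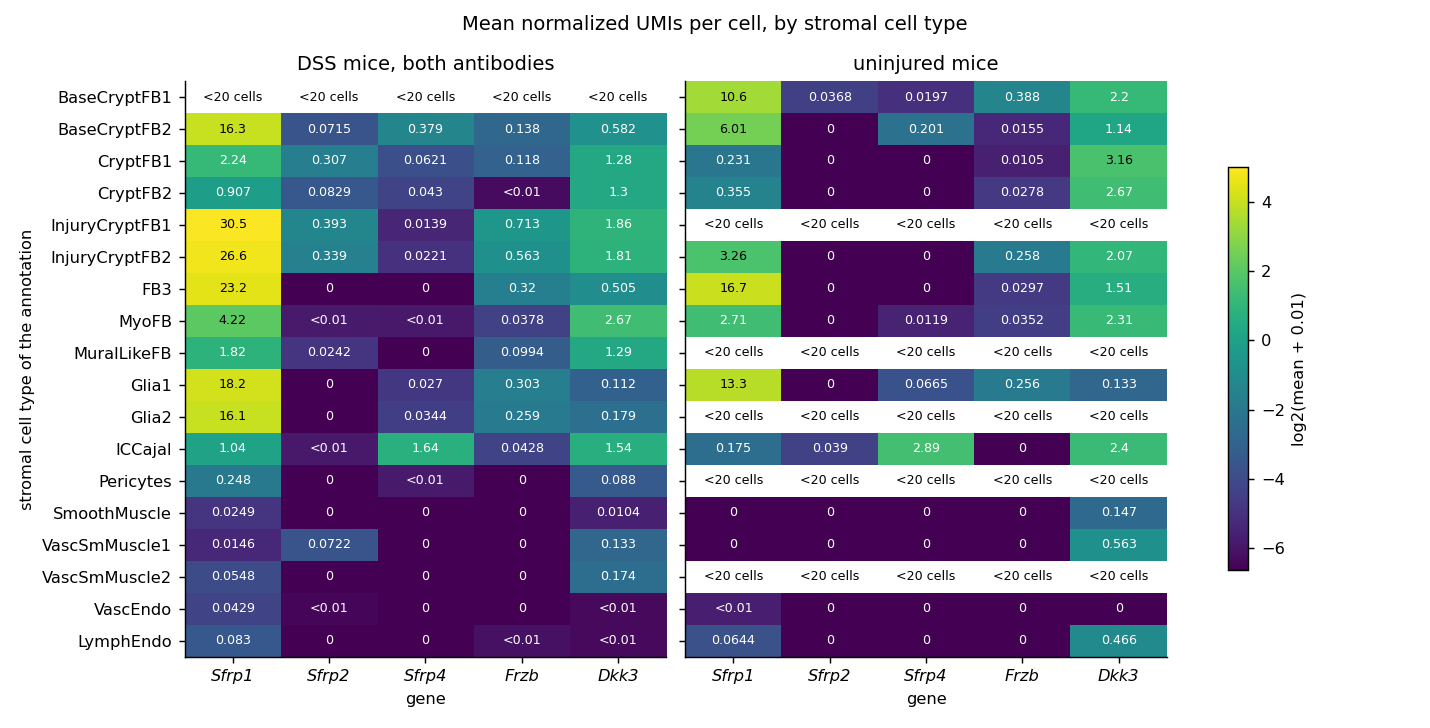
Mean normalized UMIs per cell of the 5 genes in 18 stromal types, with DSS mice of both antibody arms left and uninjured mice right. Each value is a mean over all cells of the type in that panel, pooled, and not a mean over mice. Types with fewer than 20 cells in a panel as a whole are marked as such and hold no value. Sfrp1 and Frzb are highest in InjuryCryptFB1 and InjuryCryptFB2 of DSS mice, Dkk3 in MyoFB of DSS mice and CryptFB1 of uninjured mice, and Sfrp4 in ICCajal.

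By the total of transcripts, the leading source differed between DSS and uninjured mice, and so did the types present. In DSS mice InjuryCryptFB2 held 47.4 ± 6.95% of all stromal Sfrp1 (SD, n = 12) with 20.8% of the stromal cells, and InjuryCryptFB1 held 21.2 ± 8.57% with 8.23% of the cells. BaseCryptFB1 held 73.6 ± 5.79% of Sfrp1 in uninjured mice (SD, n = 4) with 42.9% of the cells. The same types held 49.4% and 24.5% of stromal Frzb in DSS mice, and BaseCryptFB1 held 89.3 ± 6.37% of it in uninjured mice. Fibroblasts as a whole held 94.6% of stromal Sfrp1 in DSS mice and 95.7% in uninjured mice.

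Dkk3 came from more types. InjuryCryptFB2 held 29.8%, MyoFB 24.7% and CryptFB1 16.4% of the stromal total in DSS mice. In uninjured mice BaseCryptFB1 held 49.8% and CryptFB1 22.2%. For Sfrp4 the fibroblasts held 61.1% in DSS mice and 37.1% in uninjured mice. In DSS mice ICCajal held 36.8 ± 29.3% with 2.14% of the cells, and BaseCryptFB2 held 35.9 ± 29.5% with 9.65% (SD, n = 12). These 2 shares differed by less than their SDs. In uninjured mice ICCajal held 62.5 ± 27.5% with 1.52% of the cells, and BaseCryptFB2 held 22.0 ± 18.4% with 10.5% (SD, n = 4). Type names were given by the authors to clusters of these same cells, so a difference between labels was not tested.

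**Figure D2:**
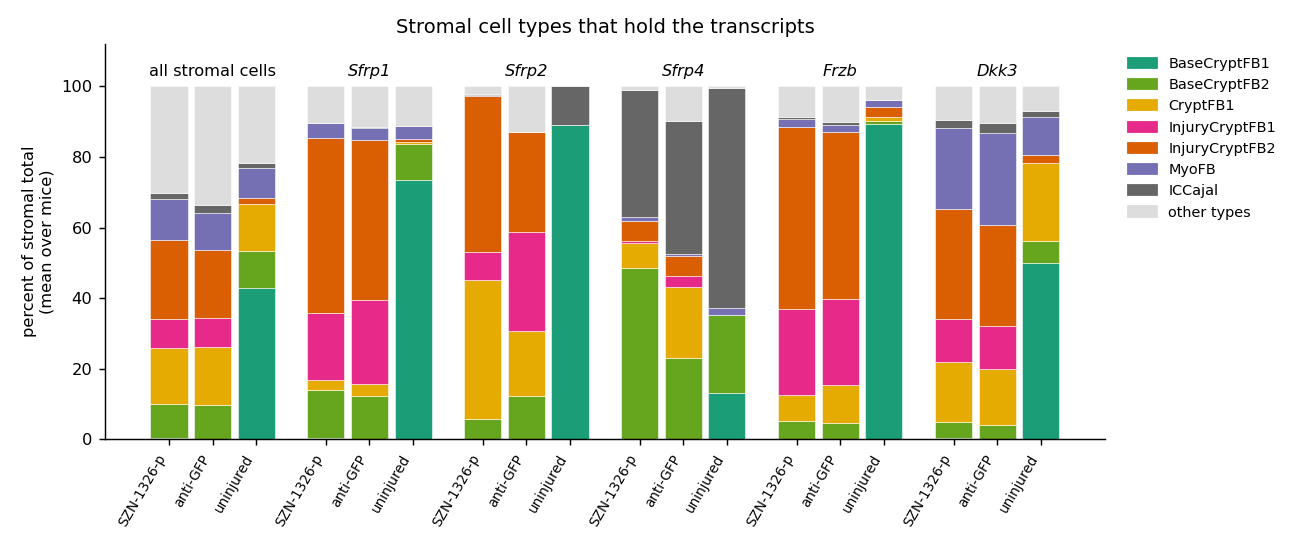
Share of stromal cells and of each gene's stromal transcripts by cell type, as stacked bars in percent for the SZN-1326-p, anti-GFP and uninjured arms (Sfrp2 over 3 uninjured mice, since 1 had no transcript). BaseCryptFB1 carries most Sfrp1 and Frzb in uninjured mice, and both InjuryCryptFB types carry them in the DSS arms.

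For the gene with the pattern most like each member over these 12 types, 11916 genes were ranked by Pearson correlation. Sfrp1 was closest to Matn2 (0.97), Mfap4 (0.97) and Lama2 (0.96), genes of the extracellular matrix. Frzb was closest to Ubp1 (0.93), Amph (0.93) and Mfap4 (0.91), and Dkk3 to Antxr1, Gli2 and Ptov1 (0.97 each). Sfrp2 was closest to Lrp3 (0.86), Gpc6 (0.83) and Hspe1 (0.83), and Sfrp4 to Cldn10 (0.96), Dhrs9 (0.95) and Ugt2b35 (0.93). The 3 genes near Sfrp4 were low, with highest levels of 0.217, 0.141 and 0.109. All 3 peaked in ICCajal, a type with at least 20 cells in 3 mice only. Lrp3 and Amph were low as well, at most 0.199 and 0.110. Mfap4 stood near both Sfrp1 and Frzb, whereas Sfrp4 had a correlation of 0.09 with Sfrp1 and of −0.06 with Frzb.

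The first comparison asked how the 5 inhibitors differ between DSS injury and the healthy colon. In fibroblasts Sfrp1 and Sfrp2 rose and Dkk3 fell in anti-GFP mice against uninjured mice, while Frzb and Sfrp4 did not pass the test. Of the 4 members that passed the filter on low values without the DSS mice, 2 were called, Sfrp1 and Dkk3, and Sfrp2, which needed them, was the third call; 22.2% of all 11110 genes tested were called in this comparison (12.4% higher and 9.79% lower). The test was limma on the log2(level + 0.01) of each mouse with Benjamini-Hochberg adjustment over all genes, and a gene was called at an adjusted p under 0.05. The median log2 difference of all genes was 0.02.

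Sfrp1 in fibroblasts ranged over 11.8, 15.9 and 18.7 (lowest, median, highest of 6) in anti-GFP mice, and had 7.87, 6.83, 6.86 and 7.22 in the 4 uninjured mice. Every anti-GFP mouse lay above every uninjured mouse. The log2 difference was 1.09 ± 0.16 (SE; 95% interval 0.75 to 1.42) with a limma adjusted p of 5.95e-05. SZN-1326-p mice, which share the injury, had 11.2, 13.6 and 15.4.

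Dkk3 went the other way. Anti-GFP mice had 1.22, 1.40 and 1.97 (lowest, median, highest of 6), and uninjured mice had 2.27, 2.08, 2.23 and 2.23. The groups did not overlap. Dkk3 fell by 0.56 ± 0.14 on the log2 scale (SE; interval −0.85 to −0.28; limma adjusted p = 0.00539).

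Sfrp2 was rare with injury and almost absent without it: anti-GFP mice held 405 UMIs in 91 of 1672 fibroblasts, and uninjured mice held 29 UMIs in 8 of 1441, 16 of them in 1 cell. Anti-GFP mice had levels of 0.0662, 0.0532 and 0.0419 at 24 h and 0.324, 0.188 and 0.158 at 48 h, against 0 and 0.00286 at 24 h and 0.0654 and 0.00427 at 48 h in uninjured mice. The uninjured mouse at 48 h that held the cell of 16 UMIs lay within the anti-GFP range and the other uninjured mice lay below it. The log2 difference was 2.62 ± 0.37 (SE; interval 1.85 to 3.39; limma adjusted p = 5.91e-05), and 3.22 without that mouse. It lost its call when recovered UMIs were tested with limma-voom (4.03, adjusted p = 0.0947). The gene passed the filter on low values only through DSS mice, so that a difference was built into its being tested.

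Frzb in fibroblasts averaged 0.274 ± 0.0943 in anti-GFP mice (SD, n = 6) and 0.226 ± 0.0426 in uninjured mice (SD, n = 4). The groups overlapped, and the log2 difference of 0.21 ± 0.28 (SE; interval −0.37 to 0.80) did not pass the test (limma adjusted p = 0.634). Only 3 fibroblast types, BaseCryptFB2, CryptFB1 and MyoFB, had at least 10 cells in every mouse of both arms. With these averaged at equal weights, the difference was 1.89 with a limma adjusted p of 0.00278. In each of them Frzb passed the filter on low values only through DSS mice, and uninjured mice held 2, 2 and 4 Frzb UMIs. BaseCryptFB1, which held 89.3% of stromal Frzb in uninjured mice, was left out of that average. Sfrp4 averaged 0.0479 ± 0.0275 in anti-GFP mice (SD, n = 6) and 0.0332 ± 0.0295 in uninjured mice (SD, n = 4), with a log2 difference of 0.53 (interval −0.74 to 1.80; limma adjusted p = 0.577). A fibroblast average mixes types, so that a change in which types are present and a change within a type cannot be told apart in it.

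Epithelial marker transcripts in fibroblasts were lower in anti-GFP than in uninjured mice, as given above, and depth per fibroblast was higher. Without the cells that carried such foreign markers, the same number of members, 3, was called.

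**Figure D3:**
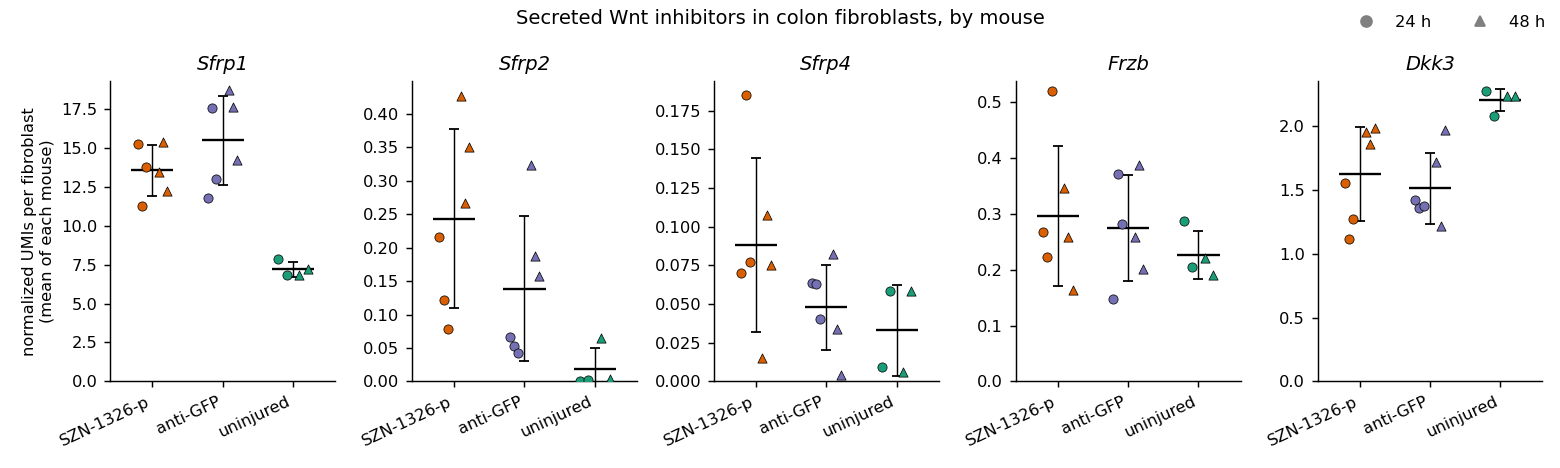
Level in fibroblasts (normalized UMIs per cell) of each mouse, 1 panel per gene, with SZN-1326-p, anti-GFP and uninjured mice from left to right; circles are 24 h, triangles 48 h, the line is the mean and the bar the SD. All anti-GFP mice lie above the uninjured mice for Sfrp1 and below them for Dkk3, and the 2 antibody arms overlap for all 5 genes.

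Within single types the same comparison could be made where both arms had mice with at least 20 cells, in BaseCryptFB2, CryptFB1, MyoFB and vascular endothelium. Of 14 tests of a member in a type, 6 were called, 4 higher and 2 lower, against 7.56% of all genes in BaseCryptFB2, 15.0% in CryptFB1, 7.73% in MyoFB and 1.56% in vascular endothelium. All 6 calls lay in BaseCryptFB2 and CryptFB1. In 7 of the 14 tests the gene passed the filter on low values only through DSS mice, and 2 of the calls were among these; of the 7 others, 4 were called, those of Sfrp1 and Dkk3 in both types.

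In CryptFB1 fibroblasts Sfrp1, Frzb and Sfrp4 rose and Dkk3 fell with DSS. Frzb and Sfrp4 passed the filter on low values there only through DSS mice, as did Sfrp2, so that a difference was built into their being tested. Sfrp1 had 1.84, 3.33 and 3.32 at 24 h and 3.10, 2.48 and 0.586 at 48 h in anti-GFP mice, against 0.292 and 0.321 at 24 h and 0.162 and 0.229 at 48 h in uninjured mice. Every anti-GFP mouse was above every uninjured mouse, also the lowest of them, at 48 h. The log2 difference was 3.08 ± 0.48 (SE; limma adjusted p = 0.000851). The share of CryptFB1 cells with Sfrp1 was 37.9% in DSS mice of both arms, against 12.2% in uninjured mice. These shares are not adjusted for depth, which differed: 363 CryptFB1 cells of anti-GFP mice held 4440872 UMIs, and 229 of uninjured mice held 1507566. In anti-GFP mice alone, 10 of 363 CryptFB1 cells held 41.2% of the Sfrp1 UMIs.

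Frzb in CryptFB1 had 0.113, 0.107 and 0.179 at 24 h and 0.154, 0.118 and 0.116 at 48 h in anti-GFP mice. Uninjured mice had 0.0503 and 0 at 24 h and 0 and 0.00738 at 48 h. The groups did not overlap, and the fitted log2 difference was 2.95 ± 0.52 (SE; limma adjusted p = 0.000259). That fit depends on the pseudocount, because uninjured CryptFB1 cells held 2 Frzb UMIs in all, against 109 in anti-GFP mice. The anti-GFP UMIs lay in 30 of 363 cells, and 10 of these cells held 75 of the 109. Per UMI of the population this was a ratio of 18.5 (exact conditional interval 5 to 155, counting error only).

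Dkk3 in CryptFB1 averaged 1.16 ± 0.481 in anti-GFP mice (SD, n = 6) and 3.06 ± 0.458 in uninjured mice (SD, n = 4). The highest anti-GFP mouse, at 1.97, was below the lowest uninjured mouse, at 2.58. Dkk3 fell by 1.49 ± 0.25 on the log2 scale (SE; limma adjusted p = 0.000226). It was spread over more cells than Sfrp1: 65.7% of CryptFB1 cells of DSS mice and 84.3% of those of uninjured mice held a UMI.

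The call of Sfrp4 in CryptFB1 rested on few cells. Anti-GFP mice held 68 UMIs in 15 of 363 cells, 46 of them in 1 cell, and uninjured mice held 0 in 229 cells, which allows a share of cells with a UMI of up to 1.31% (counting error only). Against a floor of 3 UMIs over the uninjured group, the level per UMI was 7.69-fold higher. It was 2.30-fold higher without anti-GFP 48 h replicate 1, which held 52 of the 68. The floor treats UMIs as independent, although they were clustered in cells, so these folds are not lower bounds. The fitted log2 difference of 2.36 ± 0.75 (SE) had a limma adjusted p of 0.0344, the groups overlapped at 0, and the call was lost with a pseudocount of 0.1 (0.72, adjusted p = 0.150) and in 7 of the 16 fits that left out 1 mouse. Without that replicate the fitted difference was 1.60. Sfrp2 in CryptFB1 had 72 UMIs in anti-GFP mice and 0 in uninjured mice. The 72 lay in 11 of 363 cells, 32 of them in 1 cell. By the same floor, with the same limit, this was 8.15-fold higher, and 4.17-fold without the same replicate. The test of Sfrp2 was not passed (log2 2.22, limma adjusted p = 0.0763).

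BaseCryptFB2 repeated the Sfrp1 and Dkk3 differences. Sfrp1 averaged 15.5 ± 4.49 in anti-GFP mice (SD, n = 6) and 5.98 ± 1.21 in uninjured mice (SD, n = 4), a log2 difference of 1.34 ± 0.24 (SE; limma adjusted p = 0.000301). Dkk3 averaged 0.518 ± 0.156 in anti-GFP mice and 1.15 ± 0.126 in uninjured mice, and fell by 1.18 ± 0.26 (SE; limma adjusted p = 0.00266). Neither pair of groups overlapped. Frzb had 48 UMIs in anti-GFP mice and 2 in uninjured mice, a ratio per UMI of 10.1 (2.65 to 86.0), and its fitted difference of 1.98 ± 0.80 did not pass the test (limma adjusted p = 0.136). Sfrp2, with 26 and 0 UMIs, and Sfrp4 were not called either (log2 1.81 and 0.31, limma adjusted p = 0.273 and 0.902).

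Myofibroblasts, with 3 uninjured mice, showed no called member. Sfrp1 averaged 4.05 ± 0.941 in anti-GFP mice (SD, n = 6) and 2.55 ± 0.632 in uninjured mice (SD, n = 3), with a log2 difference of 0.62 ± 0.23 (SE; limma adjusted p = 0.0953). Dkk3 averaged 2.90 ± 0.397 in anti-GFP mice and 2.25 ± 0.152 in uninjured mice, a difference of 0.34 ± 0.20 in the direction opposite to the crypt types (limma adjusted p = 0.327). Frzb was rare there, with 12 UMIs in anti-GFP mice and 4 in uninjured mice (log2 −0.25, limma adjusted p = 0.899).

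Whether the DSS effect itself differed between types was tested on the difference of a pair of types within each mouse. Between CryptFB1 and MyoFB the log2 effect differed by 2.42 ± 0.50 for Sfrp1 (limma adjusted p = 0.0396), by 3.85 ± 0.79 for Frzb (0.0369) and by −1.78 ± 0.36 for Dkk3 (0.0366), each with its SE. In this pair of types 1.64% of 10569 genes were called. Frzb could be tested in CryptFB1 and in MyoFB only through DSS mice, and its value rests on the few UMIs above. The effect on Dkk3 between BaseCryptFB2 and MyoFB (−1.44, adjusted p = 0.127) and that on Sfrp1 between BaseCryptFB2 and CryptFB1 (−1.73, adjusted p = 0.212) did not pass, in pairs with 0.795% and 1.42% of genes called. This test and its pairs of types were chosen after the within-type values were known, so the count of members called is a description.

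**Figure D4:**
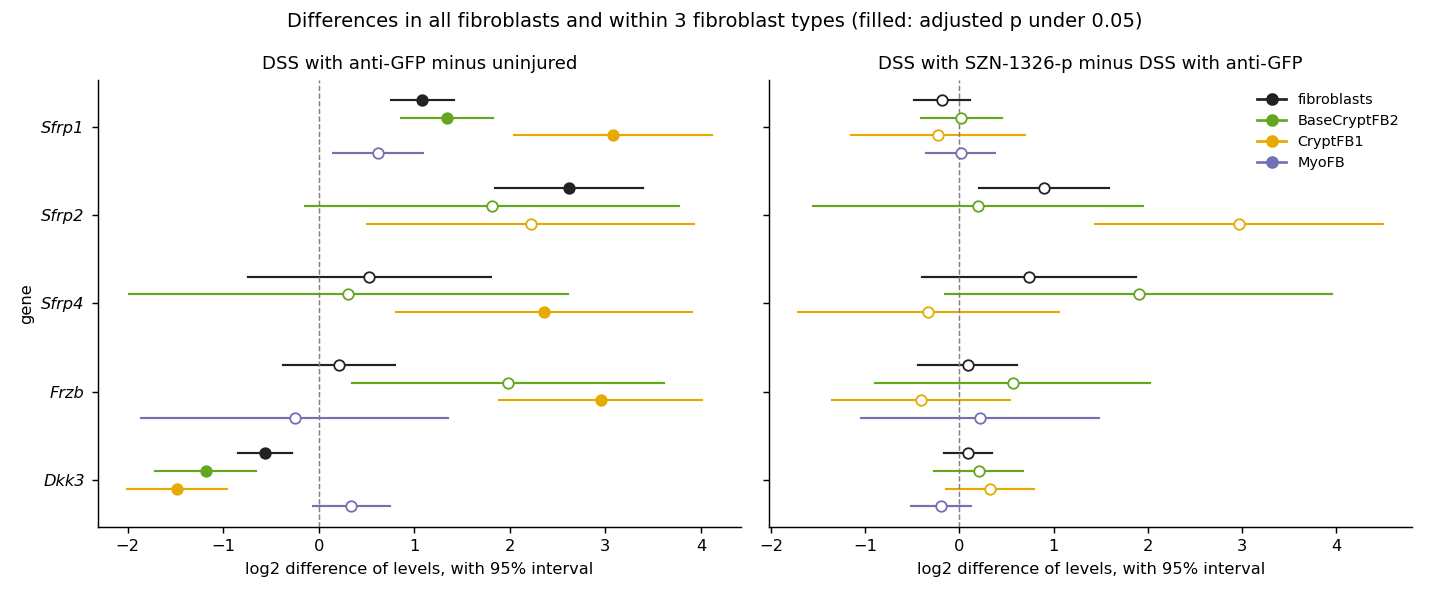
Log2 differences with 95% intervals for the 5 genes in all fibroblasts, BaseCryptFB2, CryptFB1 and MyoFB, anti-GFP minus uninjured on the left and SZN-1326-p minus anti-GFP on the right; filled points have a limma adjusted p under 0.05. With DSS, Sfrp1 lies above 0 and Dkk3 below 0 in fibroblasts, BaseCryptFB2 and CryptFB1, and no point on the right is filled.

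SZN-1326-p against anti-GFP asked whether the Wnt-receptor antibody altered the inhibitors within injured tissue. No member was called in fibroblasts over both times by limma, where 0.135% of 11110 genes were called, and limma-voom called 0 as well. Of the 5, 1 member, Sfrp2, had an unadjusted p under 0.05. The shares of genes called were 0.00900% at 24 h and 0.0900% at 48 h alone, and 0 members were called at either time.

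Sfrp2 was the member with the widest gap. In fibroblasts SZN-1326-p mice had 0.216, 0.122 and 0.0780 at 24 h and 0.427, 0.267 and 0.351 at 48 h, against 0.0662, 0.0532 and 0.0419 at 24 h and 0.324, 0.188 and 0.158 at 48 h in anti-GFP mice. The arms did not overlap at 24 h and did at 48 h. Over both times the log2 difference was 0.90 (interval 0.21 to 1.58; limma adjusted p = 0.372). At 24 h it was 1.13 (adjusted p = 0.685) and at 48 h 0.66 (0.749), and the effects at the 2 times differed by −0.47 (0.999), a test in which 0% of genes were called.

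Intervals of the other members in fibroblasts included 0. The log2 difference was −0.18 for Sfrp1 (−0.48 to 0.12; limma adjusted p = 0.623) and 0.09 for Dkk3 (−0.17 to 0.34; 0.779). Both intervals stayed within 0.5 of 0. For Frzb it was 0.09 (−0.44 to 0.61; 0.905) and for Sfrp4 0.74 (−0.40 to 1.88; 0.597), with wider intervals.

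Within types 0 of 25 tests in 7 types were called by limma, and limma-voom called 0. Of all genes, 0.0173% were called in BaseCryptFB2, 0.00877% in CryptFB1, 0.00931% in CryptFB2, 0% in InjuryCryptFB1, 0.0698% in InjuryCryptFB2, 0.00891% in MyoFB and 0% in vascular endothelium. In 3 tests a member had an unadjusted p under 0.05. Sfrp2 in CryptFB1 had 0.499, 0.355 and 0.123 at 24 h and 1.03, 0.198 and 0.425 at 48 h in SZN-1326-p mice, against 0.178, 0.0694 and 0 at 24 h and 0.206, 0.0214 and 0 at 48 h in anti-GFP mice. The arms overlapped in part. The log2 difference was 2.97 ± 0.73 (SE; interval 1.44 to 4.50) with a limma adjusted p of 0.303. In the fit with the replicate number as a block the limma adjusted p was 0.0241, but it is not known whether equal numbers mark paired mice. The transcripts were few: 47 of 912 CryptFB1 cells of DSS mice held Sfrp2, and 10 cells held 328 of its 538 UMIs.

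Sfrp2 in the injury types pointed both ways. In InjuryCryptFB2 it averaged 0.388 ± 0.258 in SZN-1326-p mice and 0.171 ± 0.195 in anti-GFP mice (SD, n = 6 each; log2 1.53, limma adjusted p = 0.421). In InjuryCryptFB1 it averaged 0.216 ± 0.258 in SZN-1326-p mice (SD, n = 6) and 0.641 ± 0.561 in anti-GFP mice (SD, n = 3; log2 −1.16, limma adjusted p = 0.783). These anti-GFP mice were 1 at 24 h and 2 at 48 h, against 3 and 3 SZN-1326-p mice, so the raw means weigh the times unequally. By time, Sfrp2 there had 0.0327 in SZN-1326-p and 0.0328 in anti-GFP mice at 24 h, and 0.399 and 0.946 at 48 h. Sfrp1 in InjuryCryptFB1 averaged 26.3 ± 5.07 in SZN-1326-p mice (SD, n = 6) and 37.8 ± 1.72 in anti-GFP mice (SD, n = 3), the same mice. Those arms did not overlap, but the log2 difference of −0.56 had a limma adjusted p of 0.540. Sfrp4 in BaseCryptFB2 averaged 0.565 ± 0.453 in SZN-1326-p mice and 0.125 ± 0.0817 in anti-GFP mice (SD, n = 6 each), where 1 cell of an SZN-1326-p mouse held 111 of 242 UMIs, and its limma adjusted p was 1.00.

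Average levels of Sfrp2 were also higher at 48 h than at 24 h, but the main test did not call the difference. Time after dosing and days of DSS advanced together, so they cannot be told apart here. Over both antibody arms, fibroblasts averaged 0.286 ± 0.102 at 48 h and 0.0963 ± 0.0651 at 24 h (SD, n = 6 each), a log2 difference of 1.59 ± 0.33 (SE; limma adjusted p = 0.0533), where 0.243% of genes were called. This comparison was chosen after the values were seen. The adjusted p was under 0.05 with the DSS arms tested alone (0.0032), with a pseudocount of 0.1 (0.00627) and in 4 fits that left out 1 mouse, and it was 0.215 with limma-voom. The other members did not pass (adjusted p = 0.222 for Dkk3 and 0.627 for Sfrp4). In InjuryCryptFB1 alone Sfrp2 averaged 0.618 at 48 h (n = 5) and 0.0327 at 24 h (n = 4), with no overlap and a limma adjusted p of 0.121, where 0.0185% of genes were called. By type, Sfrp2 averaged 0.454 at 48 h and 0.105 at 24 h in InjuryCryptFB2 and 0.314 at 48 h and 0.204 at 24 h in CryptFB1 (n = 6 each). It averaged 0.0690 at 48 h and 0.0718 at 24 h in BaseCryptFB2 (n = 6 each), and 0.0551 at 48 h (n = 5) and 0.0559 at 24 h (n = 4) in CryptFB2. No type passed the test: the limma adjusted p was 0.255 in InjuryCryptFB2, 0.985 in CryptFB1, 0.993 in BaseCryptFB2 and 0.787 in CryptFB2.

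The share of fibroblasts with an Sfrp2 UMI was also compared by time. SZN-1326-p mice had 4.18, 3.75 and 1.53% at 24 h and 7.87, 9.95 and 7.28% at 48 h. Anti-GFP mice had 2.39, 3.54 and 1.96% at 24 h and 7.24, 9.64 and 5.78% at 48 h, and uninjured mice had 0 and 0.329% at 24 h and 1.63 and 0.176% at 48 h. Every DSS mouse at 48 h was above every DSS mouse at 24 h. In cells that should lack the gene, over all DSS mice, a UMI was found in 5 of 2822 epithelial cells at 48 h (0.177%) and in 0 of 3502 at 24 h, which allows up to 0.0857%. Among myeloid cells it was found in 2 of 1817 at 48 h (0.110%) and 1 of 1602 at 24 h (0.0624%). Fibroblasts had 8.24% at 48 h and 3.06% at 24 h. The part of free RNA in the difference was not tested. After each cell was thinned to 2000 UMIs, DSS mice had 2.55 to 4.52% at 48 h and 0 to 1.78% at 24 h, so that the times still did not overlap. The long-transcript libraries were all at 24 h; with a term for them the difference was 1.81 (adjusted p = 0.0881).

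**Figure D5:**
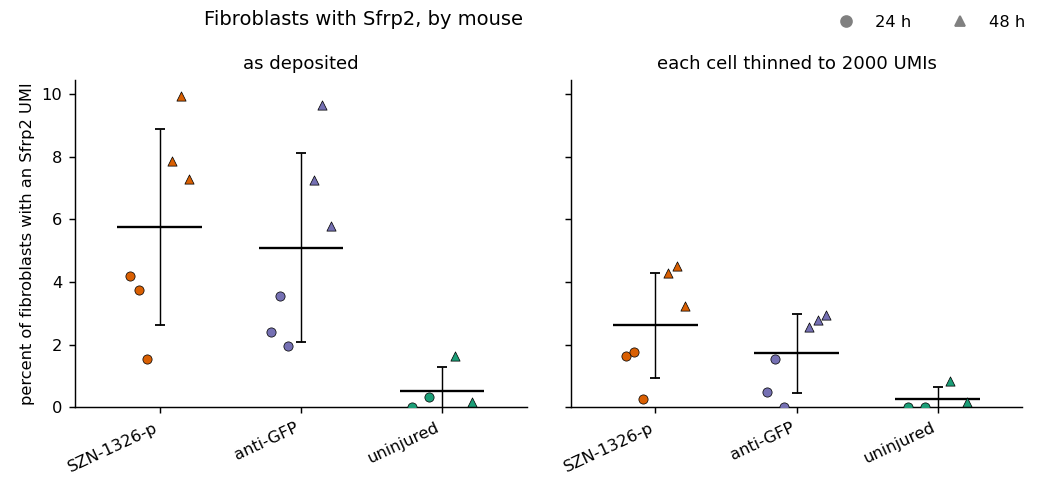
Percent of fibroblasts with at least 1 Sfrp2 UMI in each mouse, as deposited and after thinning every cell to 2000 UMIs, for SZN-1326-p, anti-GFP and uninjured mice at 24 h and 48 h. All 6 DSS mice at 48 h lie above the 6 DSS mice at 24 h in both panels.

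Other genes of the pathway were counted in the same fit of fibroblasts, anti-GFP against uninjured. Of 12 other secreted Wnt antagonists 8 were in the file and 3 could be tested, and all 3 were called higher with DSS, against 12.4% of all genes in this fit; 1 of them, Draxin, passed the filter only through DSS mice. Igfbp4, a binding protein that can block Wnt receptors, averaged 25.6 ± 5.00 in anti-GFP mice (SD, n = 6) and 7.94 ± 1.08 in uninjured mice (SD, n = 4; log2 1.67, limma adjusted p = 1.97e-06). Wif1, which binds Wnt ligands, rose by 2.16 on the log2 scale (adjusted p = 3.37e-06), and Draxin averaged 0.0566 in anti-GFP mice and 0.000926 in uninjured mice. The median over these 3, Draxin included, was 2.16, beside 0.02 over all genes.

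Among 15 Wnt ligands and R-spondins, 9 could be tested, 4 rose and 1 fell (12.4% and 9.79% of all genes did), with a median log2 difference of 0.39. Wnt5a, a ligand known for signalling without β-catenin, averaged 2.19 ± 0.400 in anti-GFP mice (SD, n = 6) and 0.777 ± 0.0353 in uninjured mice (SD, n = 4; log2 1.47, limma adjusted p = 9.16e-07). The R-spondins Rspo1 and Rspo3, which strengthen Wnt signals, rose by 1.78 and 0.87, Wnt4 rose by 0.54, and Wnt5b fell by 0.56. Of 17 receptors and co-receptors 12 could be tested and 5 were called, where 22.2% of all genes were, with Fzd1 (0.98), Ror1 (0.91), Ror2 (0.84) and Lrp6 (0.51) higher and Fzd2 (−0.76) lower, and a median of 0.25.

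Of 14 Wnt response genes 10 could be tested, and 2 were called, a share near the 22.2% of all genes. Nkd1, an inhibitor induced by Wnt, rose by 0.79 (limma adjusted p = 0.00161), Ccnd1, which encodes cyclin D1, fell by 1.93 (2.38e-05), and the other 8 were not called. Axin2, a widely used readout of Wnt signalling, had −0.30 (0.368), and the median of the list was −0.19. For SZN-1326-p against anti-GFP, limma called 0 genes of these 4 lists in fibroblasts, with medians of −0.40, 0.04, −0.23 and 0.07 in the order given here.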

How the data were processed

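The deposited data came from Cell Ranger 3.0.2 on mm10, per the submitters' processing notes. The authors gave log2 values, log2(UMIs / size factor + 1), and un-logged they were whole multiples of 1 step in each cell for 100% of 60867816 entries above 0 (tolerance 1e-06). Cell types came from the authors' deposited annotation (text, in the unit other), whose SWAP group was taken as SZN-1326-p. How size factors, cell filters and doublets were handled is not given in the sources used here, and no doublets were called. The planned count test did not suit the unit. Un-logged values were averaged per mouse and type (at least 20 cells). Their log2(mean + 0.01) was tested with limma 3.58.1 (trend, robust; R 4.3.3) in 1 fit of 6 groups, for genes with 0.05 or more in at least 2 mice, adjusted by Benjamini-Hochberg over all genes. The fit was tested on simulated data. Members and lists were chosen with earlier results of these data known. The text names all 5 members, list genes that passed in fibroblasts (Axin2 was added after its value was seen), and per member the 3 most alike genes. Alternatives were other pseudocounts, filters and scalings, limma-voom on recovered UMIs, fixed type weights, a replicate block, and leaving out each mouse.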

Additional observations from a re-analysis of the deposited data

Results flagged for a closer look

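Single mice far from the others were sought in groups of 4 to 6 mice, where chance gives about 1 in 20 for normally distributed values. Levels near 0, as for Sfrp2 and Sfrp4, need not follow that rate, and the fibroblast groups include the single types. In 11 of 85 such groups 1 mouse stood far from the others in the level of a member. For Sfrp2 these were uninjured 48 h replicate 1, with 0.0654 in fibroblasts (next highest 0.00427) and 0.12 in BaseCryptFB1 (next 0.00859, 27 UMIs), SZN-1326-p 48 h replicate 2 with 0.249 in CryptFB2 (next 0.0304), anti-GFP 24 h replicate 2 with 0.165 in CryptFB2 (next 0), anti-GFP 48 h replicate 1 with 0.540 in InjuryCryptFB2 (next 0.181) and SZN-1326-p 48 h replicate 3 with 0.044 in MyoFB (next 0.0145). For Sfrp4 they were SZN-1326-p 24 h replicate 3 with 0.109 in CryptFB1 (next 0.0441), SZN-1326-p 24 h replicate 1 with 0.0378 in CryptFB2 (next 0, 3 UMIs) and 0.0817 in InjuryCryptFB2 (next 0.0269), and anti-GFP 24 h replicate 2 with 0.305 in CryptFB2 (next 0.0363). Frzb had 1.61 in InjuryCryptFB1 of SZN-1326-p 24 h replicate 3 (next 0.783).

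By the test of the difference, the DSS effect differed between CryptFB1 and MyoFB for 3 members. On the log2 scale this was 3.85 for Frzb, −1.78 for Dkk3 and 2.42 for Sfrp1. Uninjured mice held 2 Frzb UMIs in CryptFB1 and 4 in MyoFB, and Frzb passed the filter in both types only through DSS mice. The test and its pairs were chosen after the within-type values were known, so the count is a description.

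Outside the stroma, Dkk3 had a UMI in 34 of 550 T cells of DSS mice (6.18%, 95% Wilson interval 4.46 to 8.51), in 9 of 12 mice and with at most 7 such cells in a mouse. Uninjured mice had it in 1 of 99 T cells (Wilson interval 0.178 to 5.50%), and epithelial cells of DSS mice had 0.395%. The median T cell held 2478 UMIs and the median epithelial cell 11130. A share of Dkk3 from free RNA or from doublets was not tested.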

How the results depend on the processing

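Members called with DSS in fibroblasts stayed at 3 in all 16 fits that left out 1 mouse. Under the other settings they ranged from 2 (limma-voom) to 4 (fixed type weights). The fixed weights covered BaseCryptFB2, CryptFB1 and MyoFB only. Within types they ranged from 5 to 9 without 1 mouse (6 as reported). For SZN-1326-p they were 0 to 0 in both without 1 mouse.

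Same-numbered SZN-1326-p and anti-GFP mice had correlations of 0.312, −0.316 and 0.296 at 24 h and −0.0667, −0.096 and 0.214 at 48 h over 11110 genes. Mice with different numbers had −0.517 to 0.32. With so few mice these values cannot tell whether equal numbers mark paired mice. With the replicate block, calls were 3 and 7 for DSS and 0 and 1 for SZN-1326-p in fibroblasts and within types, the 1 being Sfrp2 in CryptFB1.

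With recovered UMIs in place of normalized ones, the leading source was the same for 3 of 5 members; CryptFB1 led for Sfrp2 and BaseCryptFB2 for Sfrp4. Of 880 single values, 19 reversed, 21 gained and 12 lost a call; none that reversed was called. Sfrp4 with DSS in BaseCryptFB2 was −0.0203 with a pseudocount of 0.1, −0.76 with limma-voom and −0.83 to 1.44 without 1 mouse. Frzb with SZN-1326-p in fibroblasts was −0.0486 with limma-voom, −0.000396 on mean log2 values, −0.0242 per 10000 UMIs, −0.00706 without cells carrying foreign markers, −0.00979 with fixed weights and −0.0947 to 0.23 without 1 mouse. Ranges without 1 mouse also crossed 0 for Dkk3 with SZN-1326-p (−0.0090 to 0.16), Frzb at 48 h against 24 h (−0.29 to 0.0647) and Frzb with DSS in MyoFB (−0.56 to 0.0700). The cause of these changes was not tested.

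Sfrp2 and Sfrp4, with few UMIs, and types with few uninjured cells limit the precision. InjuryCryptFB1, InjuryCryptFB2 and BaseCryptFB1 could not be compared between injured and uninjured mice. Doublets and free RNA were not removed. The DSS comparison of MyoFB could not be fitted without uninjured 24 h replicate 2, the 1 uninjured mouse at 24 h with at least 20 such cells.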
